A study of Mus musculus with 48 samples.

Results

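The chosen cells were 10x Genomics barcodes of mouse V580_D6 cells in which at least 3 of the 4 genes Lama1, Cubn, Sox17 and Foxa2 had 1 or more unique molecular identifier (UMI, the tag that marks 1 captured RNA molecule). They numbered 953 of 15412 barcodes, 6.18% (95% Clopper-Pearson interval 5.81 to 6.58, counting error only), and the other 14459 barcodes served as the comparison. All barcodes had at least 200 genes. The working name of the set was extraembryonic endoderm-like. The extraembryonic endoderm arises beside the embryo proper and forms the yolk sac lining. Its parietal cells lay down a thick laminin and collagen IV basement membrane, whereas its visceral cells take up and degrade nutrients and secrete carrier proteins of retinol and lipids. Differentiation of embryonic stem cells with retinoids is a classical way to obtain such cells in culture.

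V580_D6 cells were C57BL/6 female embryonic stem cells, kept on inactivated mouse embryonic fibroblasts (MEF) and then treated for 6 days with vitamin C (Vc) and AM580, a retinoic acid receptor alpha agonist, a combination named V580. The study made them as gonadal somatic cell-like cells. The study describes its 10x sequencing as done in triplicate. The table used here belongs to 1 sample, with no mark that separates libraries, and was taken as 1 library, so that no test between barcodes was made, and intervals of pooled values cover counting error only. Bulk RNA-seq libraries that took no part in the choice of barcodes were used for tests: V580 at days 4, 6, 8 and 10 (V580_D4 to V580_D10, 3 libraries each), E12.5_GC, separated from female gonads of C57BL/6 mice at E12.5 (3 libraries), and the same stem cells for 24 h or 48 h without compounds (Con), with Vc, with AM580 or with both (V580), 2 libraries each. No label says that replicates came from separate cultures or animals, so p-values measure the spread between these libraries, which may be technical.

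The chosen barcodes were deep. They held a median of 23550.0 UMIs (quartiles 16523 and 32275) and 4933 genes, compared with 8283 UMIs and 2834 genes in the others, and thus 15.0% of all UMIs in 6.18% of the barcodes. Mitochondrial genes took a median of 2.31% of UMIs in the chosen and 3.44% in the other barcodes. Depth and the rule moved together. The median was 5862 UMIs in the 9551 barcodes with none of the 4 genes, 10924 in the 3936 with 1, 13223 in the 972 with 2, 19527 in the 447 with 3 and 26991 in the 506 with all 4. Of the chosen barcodes, 34.5% lay above the 95th percentile of UMIs of the library, compared with 3.06% of the others. Scrublet, a doublet caller, marked 0 barcodes, so it could not be used to remove doublets. Its median score was 0.0570 in the chosen and 0.0644 in the other barcodes. Doublets may remain, and their part in the results was not tested.

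**Figure D1:**
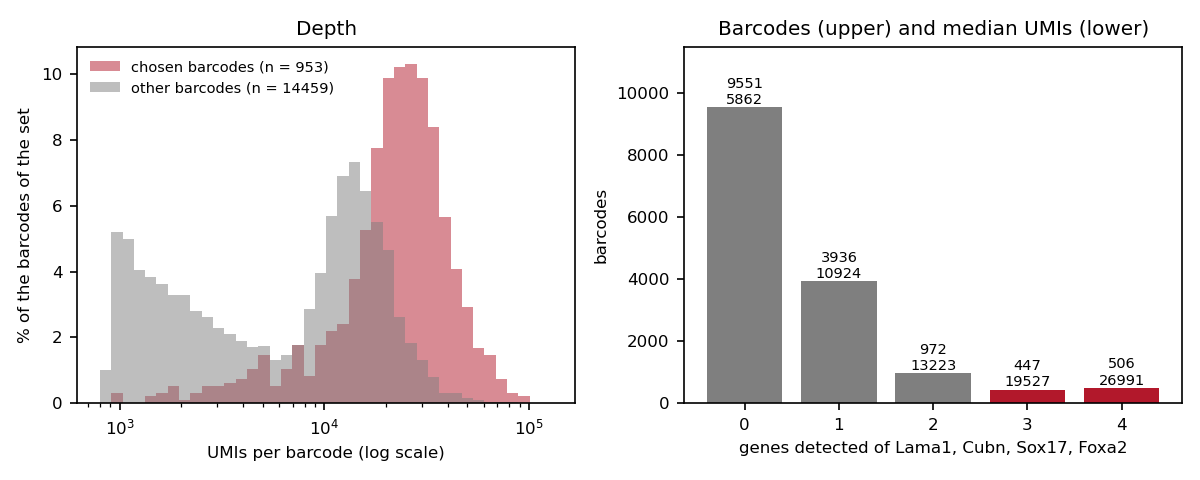
Left, UMIs per barcode (log scale) as a percentage of the chosen (red) and other (grey) barcodes. Right, number of barcodes by how many of Lama1, Cubn, Sox17 and Foxa2 were detected (bars), with the median UMIs printed under each count; the median rises from 5862 with none to 26991 with all 4.

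The rule genes themselves are given as a description, because they chose the barcodes. Lama1, the alpha chain of laminin-111 (GRCm38 chr17:67697259-67822647, + strand), had a UMI in 97.6% of the chosen and 21.6% of the other barcodes. Cubn, the endocytic receptor cubilin (chr2:13276338-13491813, - strand), had one in 83.9% and 4.61%. For Sox17 (chr1:4490931-4497354, - strand) and Foxa2 (chr2:148042877-148046969, - strand), transcription factors of endoderm, the shares were 90.6% and 9.46%, and 81.0% and 4.98%. Pooled over the set, their levels were 544, 169, 153 and 76.3 counts-per-million UMIs (CPM), compared with 44, 7.12, 17.4 and 8.55 CPM in the others. The chosen barcodes held between 60.8% (Sox17) and 80.7% (Cubn) of all UMIs of each gene. Most of them, 506 (53.1%), had all 4 genes. Foxa2 was the gene missing in 181 (19%), Cubn in 153 (16.1%), Sox17 in 90 (9.44%) and Lama1 in 23 (2.41%).

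Thinning every barcode to 2000 UMIs left 940 chosen and 10600 other barcodes, with median depths before thinning of 23762 and 11978 UMIs, and left out 13 and 3859 shallower ones. At that depth Lama1 was detected in 52.3% of the chosen and 7.11% of the other barcodes, Cubn in 29.0% and 1.61%, Sox17 in 27.2% and 3.5%, and Foxa2 in 16.1% and 1.67%. In 1031 barcodes of a collagen-led cluster described next (cluster 5, not chosen, median depth 12443 UMIs), the 4 shares were 4.56%, 0.388%, 1.75% and 0.485%. The shares of the chosen barcodes lay above those of cluster 5 for every rule gene, as their choice requires. Clusters 6 and 7, whose barcodes outside the set also held Sox17 and Foxa2, were not part of this thinned comparison.

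Clustering the whole library without the 4 rule genes gave 10 clusters. The chosen barcodes gathered in one of them: 818 of 953 (85.8%, 83.5 to 88.0) lay in cluster 4, whose leading genes were Col4a1, Rbp4, Lama1, Tinagl1, Lgmn and Srgn. Lama1 appeared among these leaders although it took no part in the clustering. A further 70 (7.35%) lay in cluster 6, led by Wfdc2, Dppa5a, Stra8, Epcam, Cldn3 and Wnt6, and 29 (3.04%) in cluster 7, led by Cited1, S100g, Pitx1, Fabp3, Car4 and Gpx2. No other cluster held more than 9 of them. Cluster 4 had 1139 barcodes, of which 71.8% were chosen. The 321 that were not had a median of 4749 UMIs, compared with 24206 for the 818, and 63.6% of them had 2 of the 4 genes.

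Levels by number of rule genes are given as a description. Srgn and Col4a1 were picked because they were high in the chosen barcodes, so a rise in them is built in. Srgn, which encodes the proteoglycan serglycin, stood at 10.1, 15.6, 81.7, 289 and 396 CPM in barcodes with 0, 1, 2, 3 and 4 rule genes. Col4a1, a collagen IV chain, stood at 204, 297, 939, 2694 and 3631 CPM. Rbp4, S100g, Pth1r and Lgmn rose too. By contrast, Epcam stood at 136, 192, 357, 265 and 153 CPM, and Upk3b and Wt1 fell, from 148 to 17.9 CPM and from 236 to 29.9 CPM. Barcodes with 2 rule genes were of 2 kinds: in cluster 4 they held 402 CPM of Srgn and 4217 CPM of Col4a1, close to the chosen barcodes, and elsewhere 22.5 and 333 CPM. The threshold of 3 genes thus left out shallow barcodes of cluster 4 that carried both genes at high levels.

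Across genes, 9039 reached 10 CPM in either set. Of these, 543 (6.01%) were at least 2-fold higher in the chosen barcodes and 1068 (11.8%) at least 2-fold lower, with a median fold of 0.948 over all of them. These folds describe the contrast that chose the barcodes and carry no test. Lead genes, as the term is used here, were the 50 with the highest folds among genes of at least 50 UMIs and 50 CPM in the chosen barcodes, the 4 rule genes left out. They were between 5.79-fold and 18.4-fold higher (median 9.63), and the chosen barcodes held between 50.5% and 76.5% of all their UMIs. Against the 2503 other barcodes within the same window of UMIs as the middle 477 chosen ones, every lead gene remained at least 6.40-fold higher (median 13.2). With only barcodes that had all 4 rule genes counted as chosen the lowest fold was 5.05, and with each barcode weighted equally it was 4.09. Counts of list members below stand against the shares over all genes, 6.01% higher and 11.8% lower. The lists were made with earlier results of these data known, and some hold lead genes, so their counts carry no test either. A gene below 10 CPM in the other barcodes was compared only if it reached 10 CPM in the chosen ones. Such a gene could only count as higher or level.

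Transcription factors of extraembryonic endoderm were high in part. Of 12 listed, 6 reached the level for a comparison, of which 5 were at least 2-fold higher and 0 lower (6.01% of all genes were higher and 11.8% lower). Sox7 and Foxq1 reached that level only in the chosen barcodes, so the filter itself fixed part of this count. Foxq1 and Sall4 are lead genes, picked as high in the same contrast. Sox7, a partner of Sox17, stood at 20.8 CPM (19.1 to 22.7) in the chosen and 1.44 CPM (1.25 to 1.66) in the other barcodes, 14.4-fold. Foxq1, a forkhead factor, stood at 76.0 and 6.24 CPM. Gata4 was 3.33-fold higher at 81.7 CPM (78.2 to 85.4) against 24.5 CPM (23.7 to 25.4). Sall4, shared with pluripotent cells, stood at 119.9 and 15.2 CPM. Gata6, which with Gata4 drives the lineage, did not follow: it stood at 153 CPM (149 to 158) and 147 CPM (145 to 149), a fold of 1.05. Hnf4a was low but concentrated here, with 69.6% of its UMIs in the chosen barcodes at 6.38 CPM. Otx2 and Hnf4g had 0 UMIs among the chosen, which allows up to 0.123 CPM.

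Basement membrane genes had the highest summed level of the 25 lists, 11839.9 CPM in the chosen and 2449 CPM in the other barcodes. Col4a1 and Col4a2, which share a head-to-head promoter region on chromosome 8, stood at 3269 CPM (3247 to 3292) and 1798 CPM (1782 to 1815), 10.6-fold and 7.87-fold above the others at 309 and 229 CPM. Lamb1 and Lamc1, which join Lama1 in laminin-111, stood at 831 and 365 CPM (5.23-fold and 4.14-fold), Nid1, which links laminin to collagen IV, at 95.9 CPM (3.77-fold), and Sparc, a collagen-binding glycoprotein, at 4941 CPM (4.10-fold). These 6 of the 12 genes compared were at least 2-fold higher and 1, Col4a5, was lower at 5.97 against 26.1 CPM. The other collagen IV chains were scarce, with 3 UMIs of Col4a3, 63 of Col4a4 and 47 of Col4a6 in all chosen barcodes. Lama5, Lamb2, Agrn and Hspg2, chains and proteoglycans of other basement membranes, had folds between 0.528 and 1.57. Tinagl1, a matrix protein of basement membranes and a lead gene, stood at 1135 against 115 CPM.

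Further genes known from parietal endoderm were higher for 7 of 11 compared and lower for 0 (6.01% of all genes were higher and 11.8% lower). Srgn, Fst, Tfpi and Pdgfra of these are lead genes, picked as high in the same contrast. Srgn had the highest fold of the lead genes, at 355 CPM (347 to 362) against 19.3 CPM (18.5 to 20), 18.4-fold. Fst, the activin-binding follistatin, stood at 277 and 17.4 CPM, Tfpi, an inhibitor of tissue factor, at 440.1 and 52.8 CPM, Pth1r, the receptor of parathyroid hormone-related peptide, at 326 and 67.3 CPM, and Pdgfra, a growth factor receptor, at 105 and 16.2 CPM. Serpinh1, a collagen chaperone, was 2.07-fold higher at 1289.8 CPM. Some classical parietal markers were low: Thbd stood at 2.13 CPM, Plat at 52.5 against 86.1 CPM, and Vim at 131 against 260.5 CPM.

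Visceral endoderm genes were high in the same pool. Among receptors and adaptors of uptake, 6 of 7 compared were at least 2-fold higher, Cubn of the rule included. Lrp2, the megalin receptor that works with cubilin, stood at 85.0 against 15.0 CPM, Lrpap1, its chaperone, at 439.9 against 79.1 CPM, and Dab2, the clathrin adaptor of megalin, at 318 against 123 CPM. Amn, the membrane anchor of cubilin, was scarce at 4.71 CPM. Of 18 secreted and carrier genes listed, 9 reached the level for a comparison. All 9 were higher (6.01% of all genes were higher), the lead genes Rbp4 and Spink1 included. Apoa1 and Ttr reached that level only in the chosen barcodes, so the filter itself fixed part of this count. Rbp4, the plasma retinol carrier, stood at 616 CPM (606 to 625) against 45.8 CPM, Apoe at 1569.9 against 364 CPM, Apoa1 at 43.3 against 4.89 CPM, Ttr, transthyretin, at 26.1 against 2.54 CPM, Mttp, which loads lipid onto apolipoprotein B, at 64.5 against 13.2 CPM, and Spink1, a trypsin inhibitor, at 172 against 11 CPM. The best known visceral products were nearly absent: the chosen barcodes held 41 UMIs of Afp (1.68 CPM), 13 of Alb and 75 of Apob.

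Lysosomal and endocytic genes shifted less, with 5 of 16 higher and 0 lower. Lgmn, the protease legumain, stood above the rest of that list at 975 against 87.7 CPM (11.1-fold), and Ctsl, cathepsin L, stood at 966 against 411 CPM. Cd63, a tetraspanin of late endosomes and the surface marker by which the study sorted V580_D6 cells, stood at 749 CPM (739 to 760.4) in the chosen and 409 CPM (406 to 413) in the other barcodes, 1.83-fold. After thinning to 2000 UMIs it was detected in 73.1% of the chosen and 51.5% of the other barcodes, and in 63.7% of cluster 5. The chosen barcodes held 24.4% of all Cd63 UMIs. The sorted cells were not analysed here.

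**Figure D2:**
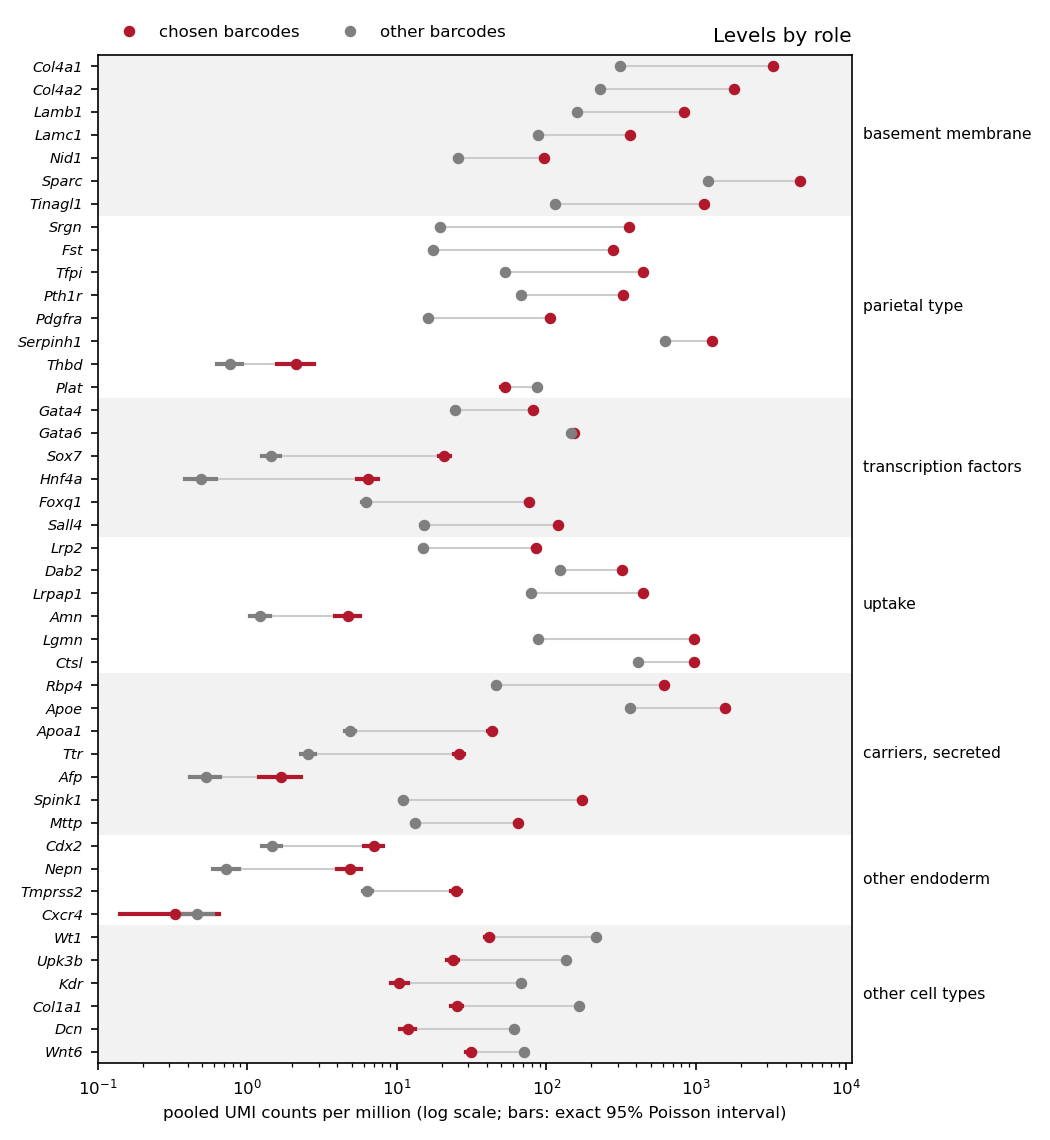
Pooled CPM (log axis) of 44 genes grouped by role in the chosen (red) and other (grey) barcodes, with exact 95% Poisson intervals that cover counting error only. Basement membrane, uptake and carrier genes lie to the right in the chosen barcodes, Gata6 is level (153 and 147 CPM), and markers of other cell types lie to the left.

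Several lead genes belong to none of these groups. Pitx1, a homeobox factor of hindlimb and oral tissue, stood at 332 against 20.3 CPM (16.4-fold), and S100g, the calcium-binding calbindin-D9k, at 620.4 against 42.8 CPM (14.5-fold). Neither was particular to the set: barcodes of cluster 7 that were not chosen held more of both, Pitx1 at 428 CPM and S100g at 945 CPM. Flt1, a receptor of vascular endothelial growth factor, stood at 201 against 12.4 CPM, although Kdr, its endothelial partner, was among the 10 lowest genes at 10.4 against 67.4 CPM. Hs3st1, a heparan sulfate sulfotransferase, stood at 216 against 13.1 CPM, Ctsh, cathepsin H, at 274 against 19.4 CPM, and Car4, a membrane-bound carbonic anhydrase, at 694 against 63.4 CPM. Metabolic genes among the first 20 were Hkdc1, a hexokinase domain protein, at 60.4 against 3.77 CPM and Tdh, the threonine dehydrogenase of mouse stem cells, at 61.5 against 4.91 CPM. Hopx, Igfbp1, Lpar3, Clic6, Myl3 and Epas1 stood between 51.5 and 70.0 CPM, 11.1-fold to 14.7-fold above the others. Igfbp1 was detected in 14.8% of the chosen barcodes, Car4 in 87.8% and Lgmn, described above, in 96.7%. After thinning, Igfbp1 was detected in 7.02% of the chosen barcodes and 0.194% of cluster 5, Car4 in 58.1% and 3.49%, and Lgmn in 78.7% and 8.73%. Car4 was also a leading gene of cluster 7, which was not part of this thinned comparison.

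Genes of the anterior visceral endoderm and of signalling were mixed. Dkk1, a Wnt inhibitor, stood at 17.6 against 3.48 CPM and Hesx1, a homeobox repressor, at 8.80 against 0.880 CPM, with 63.8% of Hesx1 UMIs in the chosen barcodes. Cer1 and Gsc, which define the anterior visceral endoderm, had 0 UMIs. Ihh, the hedgehog ligand of visceral endoderm, stood at 16.9 against 1.21 CPM (14.0-fold), Bmp2 at 21.2 against 11.1 CPM, and Bmp4 at 5.89 against 26.3 CPM. The list of definitive endoderm and gut genes summed to 159.8 CPM in the chosen and 150.2 CPM in the other barcodes. Most of that was Cd24a, a broadly used surface marker, at 120.5 against 137 CPM. Tmprss2, the other gene compared, was higher at 24.8 against 6.35 CPM. Cdx2 stood at 7.0 CPM and Nepn at 4.83 CPM, and Cxcr4 had 8 UMIs and Trh 4 in all chosen barcodes. The node genes T and Noto had 0 UMIs.

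Retinoid genes were split by role, with 3 of 18 compared at least 2-fold higher and 8 lower. The 2 enzymes that degrade retinoic acid were higher: Cyp26a1 stood at 495 CPM (486 to 504) against 45.4 CPM (10.9-fold) and Cyp26b1 at 87.2 against 34.1 CPM (2.55-fold). Rbp4 was the third. Aldh1a2, which makes retinoic acid, was among the lowest genes of the table at 11.2 against 77.7 CPM, Dhrs3, a retinal reductase, stood at 47.9 against 163 CPM, and Crabp1 and Crabp2, carriers of retinoic acid, at 7.36 against 25.9 and 17.8 against 40.7 CPM. The receptors Rarb, Rarg and Rxra were 2-fold or more lower, whereas Rara, the target of AM580, stood at 24.8 against 37.9 CPM.

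Cyp26a1 is shown with the 250 bases before its start (RefSeq, GRCm38.p6, chr19:37697558-37697807, + strand), because these bases hold a match to a retinoid direct repeat, given in capitals. The motif searched on both strands was AGTTCA, 5 further bases and AGTTCA, and the match reads on the reverse strand, from 32 to 16 bases before the start. Of 32851 windows of 300 bases at RefSeq starts, 8 (0.0244%) held the motif, and among 52 windows of the 36 lead genes with an entry this was the only match. S100g (chrX:162964600-162964849, - strand) is shown beside it with a forkhead match, GTAAACA, in capitals, 47 to 41 bases before its start. Forkhead letters (TGTTTAC or TGTTTGC on either strand) were in 8.48% of all windows and in 7 of the 52, and GATA letters (AGATAA or TGATAA) in 18.6% and 11.5%. A match describes the letters only. Promoters of Lama1, Sox17 and Fst were not analysed here.
Cyp26a1: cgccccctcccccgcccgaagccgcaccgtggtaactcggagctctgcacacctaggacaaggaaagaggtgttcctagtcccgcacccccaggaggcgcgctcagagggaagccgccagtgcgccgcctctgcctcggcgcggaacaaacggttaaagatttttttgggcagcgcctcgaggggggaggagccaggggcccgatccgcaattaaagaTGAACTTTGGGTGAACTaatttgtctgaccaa
S100g: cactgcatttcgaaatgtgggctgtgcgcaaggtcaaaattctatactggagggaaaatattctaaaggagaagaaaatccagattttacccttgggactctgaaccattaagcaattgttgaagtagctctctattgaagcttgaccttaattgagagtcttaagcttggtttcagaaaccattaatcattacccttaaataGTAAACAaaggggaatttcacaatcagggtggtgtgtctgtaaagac

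Markers of the other cell types that the culture was reported to hold were mostly low. Of the mesothelial list 5 of 6 compared were at least 2-fold lower and 0 higher, among them Upk3b at 23.6 against 135 CPM and Wt1 at 41.5 against 214 CPM. All 8 interstitial genes compared were lower, with Col1a1 at 25.1 against 164 CPM and Dcn at 11.9 against 61.1 CPM. The summed level of the mesothelial list was 130.0 CPM in the chosen and 552 CPM in the others, and that of the interstitial list 411 and 1977 CPM. Granulosa markers were split: Fst and Runx1 were higher, Wnt4, Wnt6 and Rspo1 lower, Foxl2 had 18 UMIs and Nr5a1 had 0. Endothelial Cdh5 stood at 0.818 CPM and Cldn5 had 0 UMIs. Of the 8 blood genes 7 had 0 UMIs. Mesonephric genes were lower for 2 of 4 compared and neuronal genes for 1 of 1 (Stmn2), counts too small to set against the 11.8% of all genes that were lower. Trophoblast genes were mixed. Of 3 compared 1 was lower (Tfap2c), while the list summed to 1431 CPM in the chosen and 1022 CPM in the other barcodes.

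The 10 lowest genes were Mgp, Ptn, Cdh11, Aldh1a2, Adgrl3, Col1a1, Kdr, Alcam, Mir99ahg and Cdh2. Mgp, the matrix Gla protein, stood at 8.02 CPM (6.94 to 9.22) against 71.0 CPM (69.6 to 72.4), and Ptn, the growth factor pleiotrophin, at 116 against 885 CPM. The mesenchymal cadherins Cdh11 and Cdh2 stood at 8.39 against 62.2 and 8.67 against 55.4 CPM. Epithelial genes went the other way for 3 of 12 (Cldn6, Cldn7 and Ocln), with Cldn7 at 309 against 85.1 CPM, while Cdh1 and Epcam had folds of 1.26 and 1.11. Of the pluripotency genes Zfp42 (18.9 against 5.89 CPM) and Klf4 (83.3 against 22.7 CPM) were higher, and Pou5f1 stood at 2.17 CPM and Nanog at 0.164 CPM. None of the 13 S-phase and 13 G2/M genes reached a 2-fold difference, and the germ cell genes compared also did not.

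The chosen barcodes fell into 6 sub-clusters when clustered alone, this time with the rule genes left in the gene set. Clusters were made on these counts, so their leading genes and their levels of the rule genes are descriptions. Sub-cluster 0 (291 barcodes, 30.5%) was led by Cck, Tfpi and Tinagl1 and held the matrix genes at their highest level among the deep sub-clusters, with Col4a1 at 5507, Lama1 at 1056 and Srgn at 739 CPM. Sub-cluster 1 (219, 23.0%) was led by Spink1, Apom, Gpx2, Ctsh and Apoe, with Spink1 at 407 CPM, Apoe at 2691 CPM and Cubn at 279.9 CPM. In sub-cluster 2 (171, 17.9%) Myl7, S100g, Igfbp1 and Pitx1 led, with S100g at 2074 CPM against 37.2 CPM in sub-cluster 0 and Pitx1 at 1047 against 28.7 CPM. Apoa2 stood at 102 CPM there and at 20.5 CPM or less in each other sub-cluster. Gata4, Sox7 and Hnf4a were detected in all 3, at 79.0 to 126, 22.8 to 27.8 and 4.94 to 9.26 CPM, and Foxa2 at 80.5 to 90.2 CPM.

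The smaller sub-clusters stood apart. Sub-cluster 3 (130 barcodes, 13.6%) had the highest median depth, 33360.0 UMIs, and was led by Ptn, Gas1, Nfib, Igfbp5, Itm2a and Wt1 while keeping Col4a1 at 2445 CPM and Srgn at 253 CPM. The mesothelial list summed to 274 CPM in it, against 29.0 to 34.2 CPM in sub-clusters 0 to 2, and the interstitial list to 653 CPM against 95.4 to 115 CPM. The part of doublets in this was not tested. Over all chosen barcodes, the mesothelial list summed to 183 CPM above the upper quartile of UMIs, 83.1 CPM between the quartiles and 113 CPM below the lower one. Sub-cluster 5 (46, 4.83%) was shallow, with a median of 4593 UMIs and 6.66% mitochondrial UMIs, and held Lama1 at 2589.5 CPM and Col4a1 at 9696 CPM.

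Sub-cluster 4 went against the name of the set. Of its 96 barcodes (10.1%), 69 lay in cluster 6 of the whole library, and only 9 (9.38%) had all 4 rule genes. It was led by Wfdc2, Acta2, Tagln, Krt7, Actg2, Ecm1 and Wnt6. Wfdc2 stood at 1223 CPM, as in the other barcodes of cluster 6 (1107 CPM), and Epcam at 525 CPM. By contrast, Srgn stood at 12.8 CPM, Col4a1 at 412, Sox7 at 1.42, Gata4 at 13.9 and Rbp4 at 76.0 CPM, each near the level of the barcodes outside the set. Sox17 (94.1 CPM) and Foxa2 (54.7 CPM) were present, and the other barcodes of cluster 6 also held both (47.4 and 39.3 CPM), with Lama1 at 15.8 and Cubn at 2.08 CPM. The rule therefore took in 96 barcodes with endoderm transcription factors but without the matrix and carrier genes of the others. The name extraembryonic endoderm-like is kept for those others only.

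**Figure D3:**
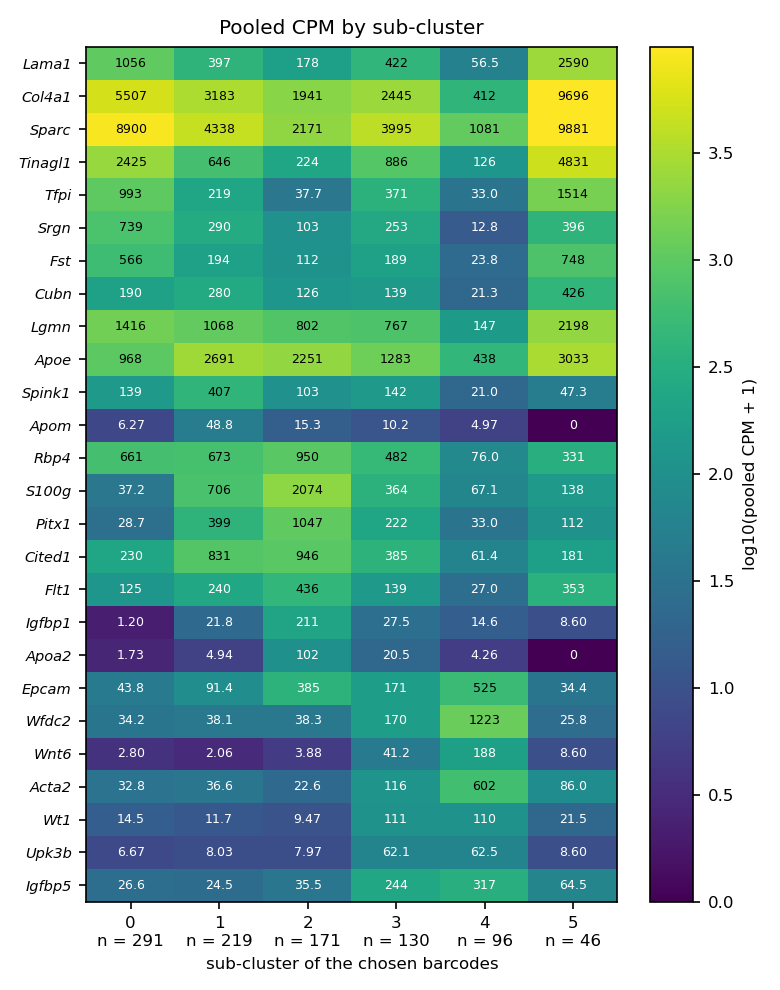
Pooled CPM of 26 genes (rows) in the 6 sub-clusters of the chosen barcodes (columns, with the number of barcodes), printed in each cell and coloured as log10(CPM + 1). Matrix genes are highest in sub-clusters 0 and 5, S100g and Pitx1 in sub-cluster 2 (2074 and 1047 CPM), and Wfdc2 in sub-cluster 4 (1223 CPM).

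Within the 953 barcodes the genes varied along 2 groups. Spearman's rho over barcodes, which share 1 library, is given as a description, with its value in the 477 deepest barcodes beside it. Lama1 followed Lamb1 (0.79, deepest 0.83), Lamc1 (0.78, 0.83), Col4a1 (0.78, 0.81), Sparc (0.76, 0.82), Srgn (0.62, 0.75) and Fst (0.53, 0.61). Col4a1 and Col4a2, neighbours in the genome, gave the highest value, 0.93 (0.94). A second group joined S100g with Pitx1 (0.76, 0.79), Cited1 (0.70, 0.72), Car4 (0.63, 0.70) and Flt1 (0.53, 0.59). Tfpi of the first group and Pitx1 of the second ran opposite, at -0.54 (-0.58), as did Lama1 and Epcam at -0.54 (-0.61). Carrier genes formed no further group of the same strength: Rbp4 reached 0.48 with Cited1, 0.43 with Spink1 and 0.38 with Ttr, and -0.04 with Lama1. Cubn followed Lgmn (0.43, 0.51) more than Lama1 (0.31, 0.35). Correlations of these genes with depth itself lay between -0.24 (Sox17) and 0.26 (Wt1).

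**Figure D4:**
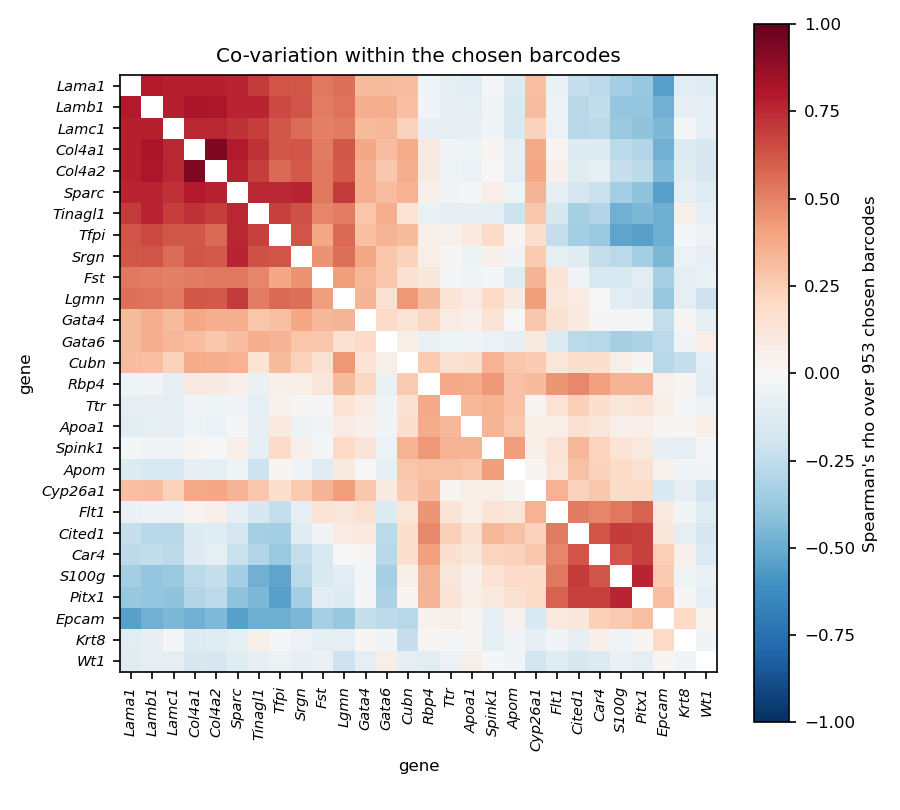
Spearman's rho between 28 genes (both axes) over the 953 chosen barcodes, from -1 (blue) to 1 (red). A block of matrix genes from Lama1 to Lgmn and a block from Flt1 to Pitx1 stand out, with negative values between many of their genes (Tfpi and Pitx1, -0.54) and positive ones between some (Lgmn and Flt1, 0.11).

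Bulk libraries were used to follow the same genes over time. Here fewer cells of a type and less RNA per cell cannot be told apart. Of the 50 lead genes, 40 were in the bulk table, which gives fragments per kilobase and per-million reads (FPKM). Hkdc1, Hopx, Igfbp1, Rbp4, Myl3, Car4, Cck, Retreg1, Gpx2 and Taf7l were not analysed there. Log2 changes are on the log2(FPKM + 1) scale and were tested with limma, and genes were called at a Benjamini-Hochberg adjusted p below 0.05 over all genes with at least 2-fold change. The comparisons share libraries, V580_D6 in the first 3 and each 48 h group in 2 of the others, so their values stand side by side only.

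From V580_D4 to V580_D6, 9 of the 40 lead genes rose and 7 fell, while 3.41% of the 11512 genes tested rose and 1.67% fell. The lead genes had a median log2 change of 0.43, against -0.01 over all genes. S100g measured 2.65, 2.61 and 1.56 FPKM at day 4 and 76.0, 60.1 and 71.7 FPKM at day 6, and Pitx1 1.75, 2.02 and 1.73 against 23.5, 22.0 and 24.4 FPKM. Neither pair of groups overlapped. The log2 changes were 4.43 (SE 0.14, limma adjusted p = 8.88e-12) for S100g and 3.10 (SE 0.09, limma adjusted p = 2.43e-12) for Pitx1. Cited1, Ctsh, Flt1, Hs3st1, Pdgfra, Ramp2 and Tdh rose as well. Cyp26a1 fell from 155, 171 and 168 FPKM to 50.6, 44.7 and 45.5 FPKM (log2 change -1.79, SE 0.06, limma adjusted p = 2.15e-11), and so did the stem cell genes L1td1, Lin28a and Sall4 with 2210011C24Rik, Fabp3 and Slc2a3.

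None of the 4 rule genes was called between these days. Cubn measured 4.23, 3.10 and 4.0 FPKM at day 4 and 6.96, 5.68 and 6.02 FPKM at day 6, without overlap but under 2-fold (log2 change 0.60, limma adjusted p = 3.50e-04). Foxa2 measured 14.1, 12.2 and 12.0 FPKM at day 4 and 18.3, 16.8 and 17.3 FPKM at day 6, groups that did not overlap but differed by less than 2-fold (log2 change 0.42, limma adjusted p = 0.00427). Lama1 measured 24.9, 19.9 and 21.9 against 26.2, 22.3 and 24.3 FPKM, with overlap (limma adjusted p = 0.375). Sox17 measured 7.01, 6.07 and 5.73 against 6.54, 5.83 and 6.13 FPKM, also with overlap (limma adjusted p = 0.947). Srgn measured 5.62, 4.40 and 5.11 against 5.60, 4.57 and 5.13 FPKM, a log2 change of 0.01 (limma adjusted p = 0.911). Of the lineage factors, Gata4 rose from 5.23, 4.75 and 4.84 to 17.5, 16 and 17.5 FPKM (limma adjusted p = 4.02e-11), and Gata6 rose too. Gata6 was level between chosen and other barcodes of the 10x library. Mesothelial and interstitial genes rose over the same days, 4 of 8 tested in each list (3.41% of all genes rose and 1.67% fell). Of the listed lineage factors 3 of 8 tested rose and 1 (Sall4) fell. The 14 basement membrane genes tested had a median log2 change of 0.05, and 0 were called either way. Single members still moved both ways under the fold threshold. Col4a1 measured 76.5, 70.9 and 75.4 FPKM at day 4 and 154, 136 and 146 FPKM at day 6. Nid2 measured 150.2, 144 and 138 FPKM at day 4 and 93.5, 94.1 and 94.2 FPKM at day 6.

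After day 6, 14 lead genes rose and 0 fell by V580_D10 (5.32% and 1.5% of all genes), with a median log2 change of 0.74 against -0.02. Without a fold threshold 32 passed as higher and 2 as lower at an adjusted p below 0.05. Pitx1 reached 71.7, 73.6 and 81.1 FPKM (log2 change 1.65, SE 0.09, limma adjusted p = 8.68e-10) and Flt1 rose by 1.54. Spink1, Tfpi, Foxq1, Epas1, Hs3st1 and Tinagl1 were among the others. Of the carrier genes 3 of 6 tested rose (Apoa2, Apoe and Spink1), and of the basement membrane genes 2 of 14 (Nid1 and Sparc). All 8 interstitial genes tested rose over these days too, and the part of that in the lead genes was not tested. S100g stood highest at day 8 with 163, 161 and 143 FPKM and measured 66.7, 89.7 and 73.3 FPKM at day 10.

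The 4 rule genes did not move together from day 6 to day 10. Cubn fell from 6.96, 5.68 and 6.02 FPKM at day 6 to 2.53, 2.30 and 2.61 FPKM at day 10 (log2 change -1.05, SE 0.11, limma adjusted p = 1.18e-06). Foxa2 measured 18.3, 16.8 and 17.3 FPKM at day 6, 6.99, 6.38 and 7.15 FPKM at day 8 and 7.94, 8.08 and 7.40 FPKM at day 10 (log2 change from day 6 to day 10 -1.07, SE 0.10, limma adjusted p = 8.16e-07). Sox17 measured 6.54, 5.83 and 6.13 FPKM at day 6 and 11, 11.3 and 12.9 FPKM at day 10, under 2-fold on this scale (log2 change 0.82, limma adjusted p = 0.00126). Lama1 at day 10, 19.4, 19.6 and 22.2 FPKM, was not called different (limma adjusted p = 0.0657). Foxa2 and Cubn thus had their highest bulk levels at day 6 among the 4 days, and Sox17 at day 10.

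In comparison with E12.5_GC, 19 lead genes were higher in V580_D6 and 2 lower (7.06% and 8.11% of all genes), with a median log2 difference of 0.87 against 0.03. The count of lower genes was 4 with a pseudocount of 0.1. Foxa2 measured 0.440, 0.108 and 0.0215 FPKM in E12.5_GC (log2 difference 3.97, SE 0.10, limma adjusted p = 1.99e-13) and Cubn 0.0892, 0.0485 and 0.103 FPKM (2.74, SE 0.11, limma adjusted p = 1.20e-11). S100g, Pitx1 and Cyp26a1 were nearly absent from E12.5_GC, at up to 0.0888, 0.461 and 0.0481 FPKM, and were higher in V580_D6 by 6.05, 4.18 and 5.52 on the log2 scale. Foxa2, Cubn, S100g, Pitx1 and Cyp26a1 reached 1 FPKM in no E12.5_GC library. They entered this comparison only through V580 libraries, so their calls here are descriptions. Lama1 was not different, at 22.6, 19 and 25 FPKM in E12.5_GC (limma adjusted p = 0.295).

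Some genes of the set were higher in the gonad. Fst measured 50, 59.8 and 65.9 FPKM in E12.5_GC and 2.30, 1.92 and 2.16 FPKM in V580_D6 (log2 difference -4.24, SE 0.11, limma adjusted p = 2.11e-13). Gata4 and Gata6 were also lower in V580_D6, with log2 differences of -3.00 and -1.14. All 8 granulosa genes tested, Fst included, were lower in V580_D6 (8.11% of all genes were lower). Nr5a1, a gonadal transcription factor, measured 71.7, 95.1 and 67.8 FPKM in E12.5_GC and at most 0.0828 FPKM in V580_D6. Haemoglobin RNA moved with this comparison: Hba-a1 measured 4045, 1559 and 967 FPKM in E12.5_GC and at most 0.111 FPKM in V580_D6, and its part in the differences was not tested. The E12.5_GC libraries also varied more among themselves, with a root mean square SD of 0.265 on the log2 scale, compared with 0.0687 for V580_D6.

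At 48 h, before any V580 day, part of the lead genes already differed. In V580_48h against Con_48h, 6 of 33 lead genes tested were higher and 2 lower (1.84% and 1.34% of 10644 genes). Cyp26a1 measured 1.05 and 0.670 FPKM in Con_48h, 0.314 and 0.584 FPKM in Vc_48h, 87.4 and 93.9 FPKM in AM580_48h and 119 and 123 FPKM in V580_48h. It was up by 6.04 (SE 0.09, limma adjusted p = 1.32e-15) in V580_48h. At 24 h it stood at 4.59 and 4.93 FPKM in Con, 22.4 and 22.4 FPKM in AM580, and 22.4 and 21.5 FPKM in V580. Foxq1, Tinagl1, Cpm, Slc2a3 and 2210011C24Rik were the other genes that rose, Fst and Tdh fell by 1.80 and 1.88, and of the rule genes Cubn rose by 1.03. With a pseudocount of 0.1 instead of 1, 10 lead genes were higher.

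With AM580 alone, a comparison chosen after seeing the data, 11 of the 33 lead genes were higher than in Con_48h and 2 lower (2.33% and 0.902% of all genes). Col4a1, Col4a2, Srgn, Spink1 and Tfpi were among the 11. Of the rule genes 3 were called higher: Lama1 rose from 1.12 and 1.16 to 5.43 and 5.77 FPKM (log2 change 1.63, SE 0.10, limma adjusted p = 3.50e-09), Cubn from 0.125 and 0.0890 to 2.91 and 2.50 FPKM (1.74) and Foxa2 from 0.0212 and 0.240 to 1.61 and 1.60 FPKM (1.21). Gata4, Gata6 and Sox7 rose by 1.85, 1.42 and 1.27. Of the listed lineage factors 6 of 8 tested were higher.

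Vc added to AM580 was compared at the same time point, again chosen after seeing the data. In V580_48h against AM580_48h, 0 lead genes were higher and 3 lower (0.0282% and 0.235% of all genes), namely Srgn, Spink1 and Slc2a3. Srgn passed the filter on low FPKM only through the 2 AM580_48h libraries and was not tested with either left out. Without AM580_48h replicate 1 the count of lower genes was 1 (Spink1), and without a fold threshold 3 passed as higher and 21 as lower. Srgn measured 2.41 and 2.28 FPKM with AM580 and 0.478 and 0.573 FPKM with both compounds (log2 difference -1.13, SE 0.08). Of the rule genes, Lama1 differed by -0.75 (limma adjusted p = 8.65e-05) and Cubn by -0.71 (limma adjusted p = 5.94e-06). Sox17 and Foxa2 differed by -0.50 and -0.86. Like Srgn, Sox17 and Foxa2 passed the filter only through the 2 AM580_48h libraries, so the differences of these genes are descriptions. Each rule gene differed by less than 2-fold on the log2(FPKM + 1) scale, which understates the change of genes as low as these. The mean of Foxa2 was 1.61 FPKM with AM580 and 0.446 FPKM with both compounds. Cyp26a1 went the other way by 0.41 (limma adjusted p = 0.00546). No AM580 library without Vc at days 4 to 10 was analysed here.

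**Figure D5:**
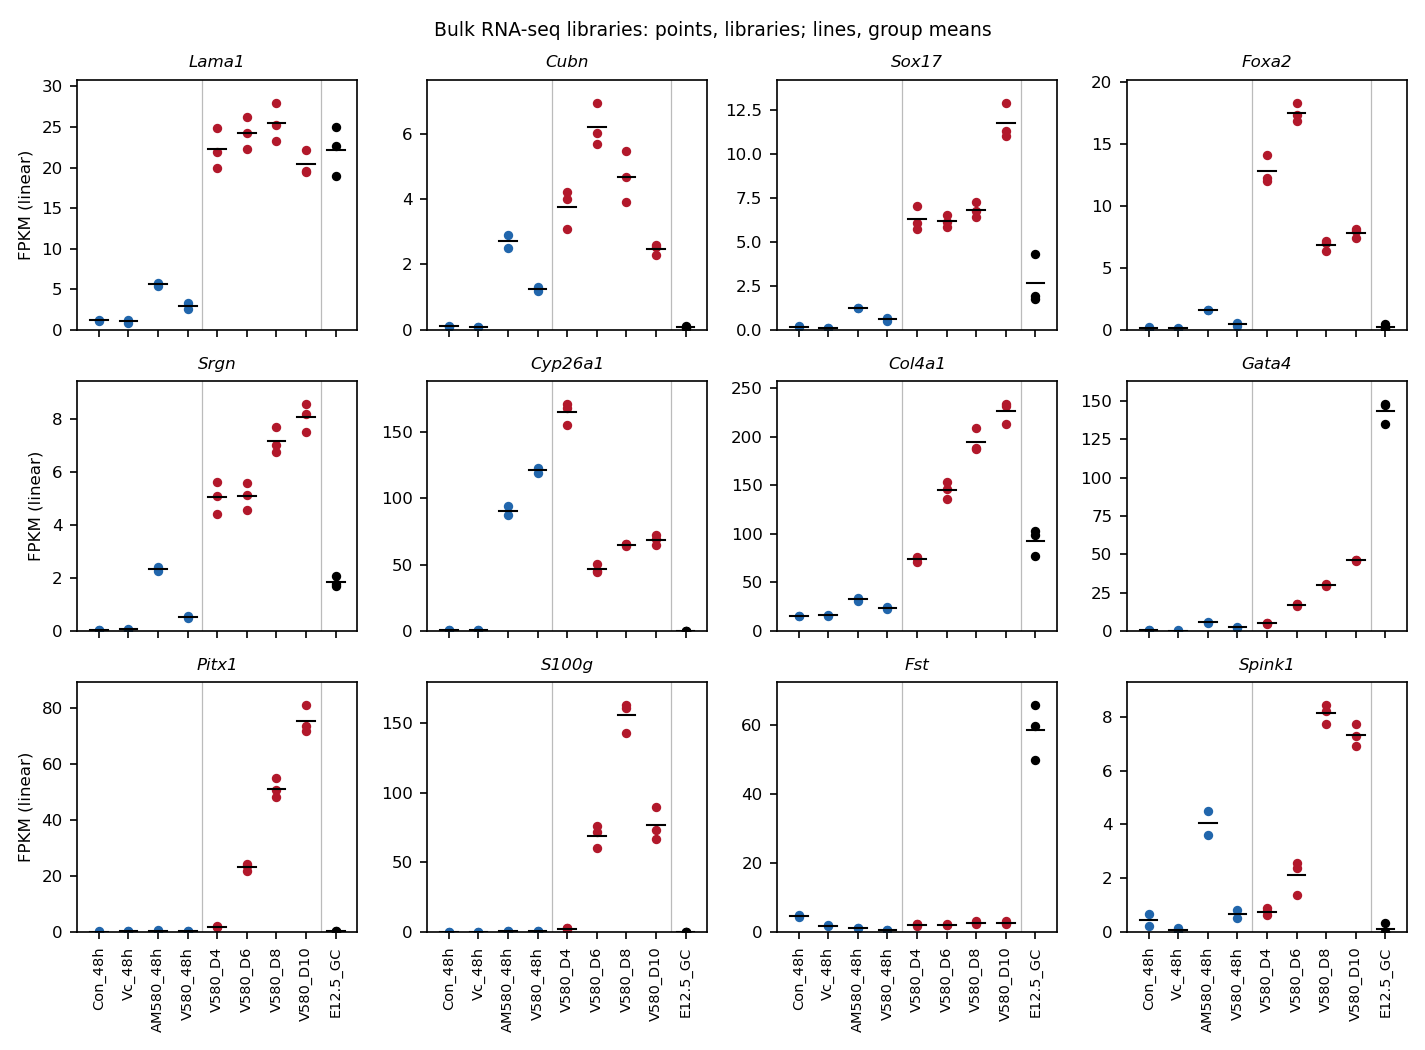
FPKM (linear axes from 0) of 12 genes in the bulk libraries of 48 h (blue, 2 per group), V580 days (red, 3 per group) and E12.5_GC (black, 3), with points for libraries and lines for group means. Foxa2 and Cubn are highest at V580_D6, Srgn, Lama1 and Spink1 are higher with AM580 alone than with V580 at 48 h, and Fst is highest in E12.5_GC (50 to 65.9 FPKM).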

How the data were processed

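The authors deposited whole-number UMI counts per Ensembl gene for 1 10x library of V580_D6 cells (32285 genes, 15412 barcodes, 163008244 UMIs), made with Cell Ranger on mm10. For 31 bulk libraries the deposited values were FPKM by symbol. The submitters' processing notes name mm10, HISAT2, featureCounts and RSEM, with no role for FPKM given. Steps of FPKM values gave depths of 16.4 to 28.3 M reads per library, so low genes vary most. Other tables of the series were not used here.

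Barcodes with at least 200 genes and at least 3 of 4 rule genes were chosen, and pooled CPM were compared at 10 CPM and 2-fold, with exact Poisson and Clopper-Pearson intervals of 95%. A gene at 0 was bounded by 3 counts. Clusters of the whole library were made without the rule genes in scanpy 1.11.5 and leidenalg 0.10.2 (2000 variable genes, 20 components, 20 neighbours, resolution 0.5). Sub-clusters within the set kept the rule genes (1500, 15, 20 and 0.4). Genes were matched to GENCODE vM21 and RefSeq (GRCm38).

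FPKM was tested with limma 3.58.1 in R 4.3.3 on log2(FPKM + 1), for genes at 1 FPKM or more in at least 3 (days) or 2 (hours) libraries, in 1 model of 15 and 1 of 16 libraries, without a replicate term.

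Genes named were the first 20 of the 50 lead genes (highest folds among genes of at least 50 UMIs and 50 CPM in the chosen barcodes), the 10 lowest, and members of 25 lists. Leading genes of clusters, further lead genes and Cd63 were named after their values were seen. The members, lists and tests were chosen with earlier results of these data known. The pooled ratio, the clustering and the limma fit were tested on simulated data, and the pooled ratio recovered 193 of 200 changed genes. Alternatives covered barcode and gene filters, thinning, pseudocount, normalization, the replicate block and each library left out.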

Additional observations from a re-analysis of the deposited data

Results flagged for a closer look

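At 48 h, Srgn and Spink1, both lead genes, were called between AM580 with and without Vc. Srgn was lower in V580_48h than in AM580_48h, with a difference of -1.13 on the log2(FPKM + 1) scale. It measured 0.478 and 0.573 FPKM against 2.41 and 2.28 FPKM, and both libraries of one group lay below both of the other. Spink1 was lower too, with a difference of -1.60 (SE 0.26, limma Benjamini-Hochberg adjusted p = 6.23e-04), with 0.829 and 0.519 FPKM against 3.62 and 4.5 FPKM, again in both libraries. Srgn reached 1 FPKM only in the 2 AM580_48h libraries of these times, so that it was not tested with either left out, and its difference rests on both. It entered the tests only through the group where it was high, so its calls in this section are descriptions. Spink1 kept its call with each library of the 2 groups left out in turn. Against Con_48h, both were called higher with AM580 (1.70 for Srgn and 1.81 for Spink1) and neither with V580 (0.56 and 0.21).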

How the results depend on the processing

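The share of chosen barcodes followed the rule. It was 6.18%, and 8.16% with at least 1000 genes per barcode, 3.28% with all 4 genes, 12.49% with at least 2, 3.70% with 2 or more UMIs per gene, 0.841% after thinning to 2000 UMIs and, chosen after seeing the data, 9.27% without clusters 0 and 3, led by AY036118 and, in cluster 3, mitochondrial genes. Without the CPM filter 1699 genes were at least 2-fold higher and 4199 lower, since more genes of low counts entered.

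Without a fold threshold the lead genes called higher and lower were 22 and 11 (V580_D6 against V580_D4), 32 and 2 (V580_D10 against V580_D6), 29 and 9 (V580_D6 against E12.5_GC), 19 and 10 (V580_48h against Con_48h), 23 and 7 (AM580_48h against Con_48h) and 3 and 21 (V580_48h against AM580_48h). A pseudocount of 0.1 gave 4 lower against E12.5_GC and 10 higher in V580_48h against Con_48h. With each library left out in turn, the counts in the same order were 9 to 10 and 6 to 7, 13 to 15 and 0, 19 and 2 to 3, 5 to 6 and 2, 9 to 11 and 2, and 0 and 1 to 3, the count of 1 being without AM580_48h replicate 1. Same-numbered libraries shared only a number, with correlations of their deviations of -0.07 to 0.09. With the replicate block the counts were 9 and 7, 14 and 0, 19 and 2, 6 and 2, 11 and 2, and 0 and 3, and no call changed.

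Of 960 recomputed values of single genes, 885 kept direction and side of the threshold, 58 passed it (43 with no fold threshold), 7 no longer passed and 10 turned sign. None of the 10 was called. They were Srgn in V580_D6 against V580_D4 with quantile normalization (-0.05) and values with a library left out, which ranged from -0.07 to 0.05 (Sox17), -0.06 to 0.08 (Srgn) and -0.09 to 0.05 (Fst) in that comparison, from -0.14 to 0.02 for Tdh in V580_D10 against V580_D6, and from -0.15 to 0.01 (Flt1) and -0.01 to 0.43 (Spink1) in V580_48h against Con_48h. The cause was not tested.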

Other observations

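Kit, the receptor of stem cell factor and a lead gene, stood at 62.4 CPM (59.3 to 65.6) in the chosen and 6.84 CPM (6.41 to 7.29) in the other barcodes, and at 318 CPM in sub-cluster 5. Fgb, a fibrinogen chain that liver and visceral endoderm secrete, stood at 6.91 against 0.577 CPM, with 67.9% of its UMIs in the chosen barcodes, and Apoa4 at 3.72 against 0.303 CPM with 68.4%. Afp was higher in the 321 barcodes of cluster 4 that the rule left out, at 20 CPM, than in the chosen ones at 1.68 CPM, and Apoa1 stood at 110.2 against 43.3 CPM. Those barcodes held 60 CPM of Ttr, compared with 26.1 CPM in the chosen. In cluster 7, barcodes that were not chosen held 945 CPM of S100g, 428 CPM of Pitx1 and 147 CPM of Sox17, with Foxa2 at 28.4 CPM.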
